A study of Mus musculus with 4 samples.

Results

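The inhibitors of cyclin-dependent kinases (CDKs) were examined in mouse neural stem/progenitor cells (NSPCs) with and without PJ34, an inhibitor of poly(ADP-ribose) polymerases (PARPs). The genes are *Cdkn1a*, *Cdkn1b* and *Cdkn1c* of the Cip/Kip family and *Cdkn2a*, *Cdkn2b*, *Cdkn2c* and *Cdkn2d* of the INK4 family. They were found by gene name on the array, which gave 12 probes for the 7 genes out of 55681 probes that are not controls and that carry 36406 gene names. Every probe is reported, and the probes of a gene are numbered from the brightest to the dimmest. The cells came from embryos of embryonic day 13.5, either wild-type or *Trp53*-/-, and both genotypes are labelled as strain Slc:ICR. They were grown in neurosphere medium with B-27, EGF and FGF-basic. The *Trp53*-/- embryos go back to *Trp53*-heterozygous mice, and *Trp53* codes for the transcription factor p53. Each of 4 arrays compared treated with untreated cells of 1 genotype, with Cy5 for the RNA of cells given 20 μM PJ34 and Cy3 for that of untreated cells, and dyes were not swapped. Each genotype had 2 arrays from separately prepared RNA, named here replicate 1 and replicate 2. The p and q values rest on the spread between these 2 preparations, pooled over both genotypes and moderated with that of all probes. The time with PJ34 before this RNA was taken is not given in the sources used here.

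CDK inhibitors are small proteins that hold the cell cycle in check. Those of the Cip/Kip family bind complexes of cyclins with several CDKs, whereas INK4 proteins bind CDK4 and CDK6 and keep them from D-type cyclins, and both leave the retinoblastoma protein active as a brake on the G1/S transition. *Cdkn1a*, which codes for p21, is a well-known transcriptional target of p53, and *Cdkn2a* codes for an INK4 protein and, in another reading frame, for ARF, which protects p53 from Mdm2. In neural progenitors, these genes are known for setting when cells leave the cell cycle and for limiting self-renewal.

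Between 21503 and 27154 probes per channel and array were well above background, and no spot was saturated. Of the NSPC markers, 8 of 8 were well above background in the control channel of all 4 arrays, and none of 5 fibroblast markers was on any of them. So were 6 of 6 oligodendrocyte, 5 of 6 neuron and 4 of 5 astrocyte markers on all 4, so that this does not single out NSPCs. The fibroblast marker *Col1a2* was above background in the PJ34 channel of all 4 arrays. The probe of *Trp53* itself had control levels of 8.28 and 8.51 (log2 intensity) in wild-type and 7.56 and 7.82 in *Trp53*-/- NSPCs. It was well above background on every array, and the difference of -0.71 was not called (q = 0.0554, limma). Which part of the gene the allele lacks is not given in the sources used here, so this probe checks little about the labels. The array of *Trp53*-/- replicate 2 stood apart in sex-linked transcripts, with log2 ratios of 4.22 for the Y-linked *Eif2s3y* and -1.39 for *Xist*, against -0.20 and 0.30 in replicate 1. In the control channel *Eif2s3y* was at 8.96 and 8.47 in wild-type and did not clear background in either *Trp53*-/- sample, so that the size of its ratio there is not exact. *Eif2s3y* and *Ddx3y* were called lower in untreated *Trp53*-/- NSPCs (q = 0.00927 each). Both probes passed the filter on control levels through wild-type alone, so that they had to differ and these q values give no support. With PJ34 their genotype differences were not called (q = 0.362 and 0.386), and *Trp53*-/- replicate 2 was at 10.46 and 9.29. The part of Y-linked transcripts in the results below was not tested. On the array of *Trp53*-/- replicate 2 the treated and untreated cells thus differed in Y-linked transcripts, so that its ratios may not compare matched cells. Several results of the CDK inhibitors in *Trp53*-/- NSPCs are therefore also given without this array. For the response differences of *Cdkn2b*, *Cdkn2c* and *Cdkn2d*, and for markers and listed genes, no fits without it are given.

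The 3 probes of *Cdkn1a* are listed for different sets of transcripts in the array files, and their sequences are shown for that reason. Whether the transcripts account for the differences between the probes was not tested. Probe 1 (chromosome 17, 29237377 to 29237436, mm9, plus strand) lies far downstream and is listed for both RefSeq transcripts. Probe 2 (29227986 to 29228045) is listed only for the second RefSeq transcript. Probe 3 (29235299 to 29235358) is listed for an Ensembl transcript and no RefSeq transcript. The last 30 of the 60 bases of each probe are given, as the files list them:
Probe 1: gctgatcctttctcagtgttgaataccgtg
Probe 2: acgtcccactttgccagcagaataaaaggt
Probe 3: tcttgtgtttcagccacaggcaccatgtcc

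RefSeq (GRCm38.p6) lists 2 start sites for *Cdkn1a*, 2790 bases apart on the plus strand of chromosome 17. Probe 2 starts 9391 bases before probe 1 on mm9, which is longer than the 6954 bases from the downstream start to the end of the gene, and shorter than the 9744 bases from the upstream start. The 250 bases before each start are shown, since p53 is the protein that the genotypes differ in and *Cdkn1a* is its textbook target. Capitals mark a match to the p53 consensus site, 2 half-sites of 10 bases without a gap, in which 1 mismatch outside the cores was allowed after the sequence had been seen:
Upstream start, chr17:29090729-29090978: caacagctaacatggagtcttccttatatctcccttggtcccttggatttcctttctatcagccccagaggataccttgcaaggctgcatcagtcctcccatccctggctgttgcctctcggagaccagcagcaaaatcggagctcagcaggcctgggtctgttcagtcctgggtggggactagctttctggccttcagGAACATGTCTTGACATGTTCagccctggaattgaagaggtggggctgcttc
Downstream start, chr17:29093519-29093768: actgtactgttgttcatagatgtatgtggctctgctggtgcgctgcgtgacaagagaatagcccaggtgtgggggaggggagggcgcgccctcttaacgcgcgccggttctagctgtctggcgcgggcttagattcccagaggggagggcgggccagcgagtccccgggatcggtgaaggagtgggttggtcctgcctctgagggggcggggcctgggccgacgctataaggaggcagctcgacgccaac
The match lies 51 to 32 bases before the upstream start, and 1 search covers both strands because the consensus is its own reverse complement. Of 32851 windows from 250 bases before to 50 bases after a start in the RefSeq table, 18 (0.0548%) held such a match. The table has 9 windows for 6 of the 7 genes, and 1 of the 9 held it. A match is a description of the letters and was not tested as a site of binding.

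*Cdkn1a* was upregulated by PJ34 in wild-type NSPCs on 2 of its 3 probes, and in *Trp53*-/- NSPCs no probe of it was more than 2-fold changed. On probe 1, the log2 ratio of PJ34 over control was 1.84 and 1.23 on the wild-type arrays and -0.48 and -0.74 on the *Trp53*-/- arrays. The genotypes did not overlap, and the wild-type arrays were both higher with PJ34. The mean wild-type change was 2.90-fold (log2 1.53 ± 0.44, SD, n = 2, standard error 0.14, q = 8.63e-05 in limma). On probe 2, the log2 ratios were 1.56 and 0.93 in wild-type and 0.042 and 0.071 in *Trp53*-/- NSPCs. The mean wild-type change was 2.37-fold (q = 0.000212 in limma). The spread in that test was pooled over the genotypes, with an SD of 0.45 in wild-type and 0.021 in *Trp53*-/- NSPCs. Without wild-type replicate 1, the change on probe 2 was 0.93 on the log2 scale, short of 2-fold.

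Probe 3 gave 0.33 and -0.09 in wild-type and -0.029 and -0.0066 in *Trp53*-/- NSPCs. It passed the filter on dim probes only through the PJ34 channel of the wild-type arrays, and its control signal did not clear background on any of the 4. Its wild-type mean of 0.12 had a 95% interval from -0.12 to 0.36 (q = 0.262). The size depended on how the background was handled, with 0.21 at an offset of 16 (q = 0.209) and 0.96 with the scanner software's ratios (q = 0.173).

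These were the only probes of a CDK inhibitor called in this comparison, with p and q below 0.05 and more than 2-fold: 2 of 12 probes, both of *Cdkn1a*, where 0.437% of 27029 probes were called. None of the 12 was called in *Trp53*-/- NSPCs, where 0.318% of the probes were. At an unadjusted p below 0.05 in limma, 7 of 12 passed in wild-type (30.3% of all probes), 7 in *Trp53*-/- (30.0%) and 4 in the difference between genotypes (14.0%). The response of *Cdkn1a* itself differed between the genotypes. The difference of the log2 ratios, wild-type minus *Trp53*-/-, was 2.14 on probe 1 (95% interval 1.72 to 2.57, q = 0.000736) and 1.19 on probe 2 (standard error 0.19, q = 0.0139). On probe 2 neither channel cleared background in *Trp53*-/- NSPCs, so that its ratio there is no measure of a response and the value of probe 2 rests on the wild-type arrays. Without wild-type replicate 1, that of probe 2 was 0.87, short of 2-fold. Probes 1 and 2 of *Cdkn1a* were the only 2 of 12 called in the difference, where 0.422% of all probes were. The call of probe 2 restates its wild-type response and gives no support of its own. Without *Trp53*-/- replicate 2 the differences were 2.02 and 1.20, both called. Because PJ34 was always in Cy5, a dye bias cannot be told apart from the response within a genotype, and whether it was alike in both genotypes was not tested. With log ratios as the scanner software gave them the differences were 2.33 and 1.48 (q = 0.257 and 0.273), and 0 of 27029 probes were called by limma, of which 2949 had an unadjusted p below 0.05.

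**Figure D1:**
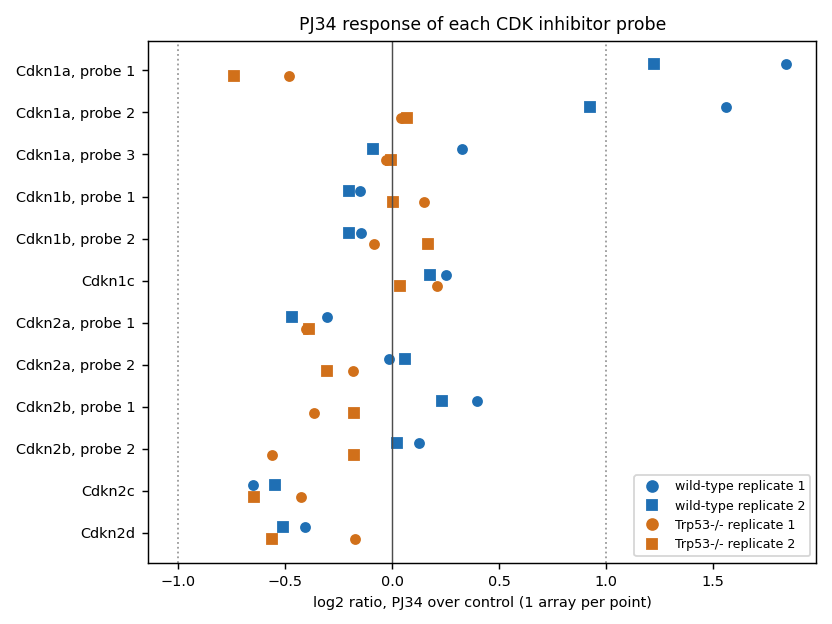
Log2 ratio of PJ34 over control (x axis) for each of the 12 probes of CDK inhibitors (rows), with 1 point per array, coloured by genotype and shaped by replicate. Dotted lines mark a 2-fold change. The wild-type points of Cdkn1a probes 1 and 2 lie apart on the right, at 0.93 to 1.84, and no other point is above 0.40.

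Probe 1 is printed in 10 spots, which show the error within an array. On the wild-type arrays the spots ranged from 1.79 to 1.87 and from 1.18 to 1.29. On the *Trp53*-/- arrays they ranged from -0.65 to -0.37 over 9 spots and from -0.87 to -0.59 over 10. The SD between spots was 0.0265 to 0.0998, so that the gap between the wild-type replicates was larger than the error of the spots. In *Trp53*-/- NSPCs every spot was thus below 0. The mean of -0.61 (q = 0.00764) was less than 2-fold, gave q = 0.0859 without replicate 2 and turned to 0.065 with median centring in place of loess, which put the median of all probes at 0.57 and left this probe at -0.51 relative to it.

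**Figure D2:**
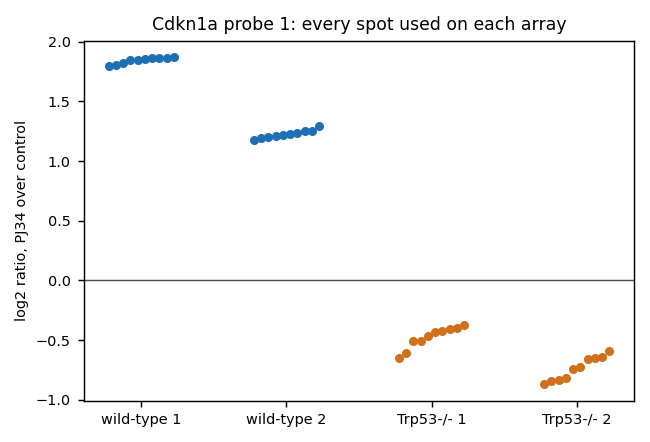
Log2 ratio of PJ34 over control (y axis) of every spot of Cdkn1a probe 1, by array and sorted by value within the array. The outlier spot of Trp53-/- replicate 1 (-0.44), left out of the averages, is also drawn. Wild-type spots lie between 1.18 and 1.87, and Trp53-/- spots lie between -0.87 and -0.37.

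The level of *Cdkn1a* was lower in *Trp53*-/- than in wild-type NSPCs even without PJ34. On probe 1 the untreated log2 intensity was 11.28 and 12.05 in wild-type and 8.91 and 9.02 in *Trp53*-/- NSPCs. With PJ34 it was 13.12 and 13.28 in wild-type and 8.43 and 8.28 in *Trp53*-/- NSPCs. From highest to lowest, the order was wild-type with PJ34, untreated wild-type, untreated *Trp53*-/- and *Trp53*-/- with PJ34, and no neighbours in this order overlapped. The untreated level was 6.51-fold lower in *Trp53*-/- NSPCs (log2 -2.70, standard error 0.28, q = 0.0109) and the PJ34-treated level 28.8-fold lower (log2 -4.85, standard error 0.17, q = 0.00447). In bulk RNA, fewer cells with the transcript and less transcript per cell cannot be told apart.

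On probe 2, the wild-type levels were 8.20 and 8.37 without and 9.76 and 9.29 with PJ34. In *Trp53*-/- NSPCs the probe was not well above background in either channel of either array, so that only limits can be given. The untreated level was at least 3.58-fold higher in wild-type (q = 0.00766) and the PJ34-treated level at least 10.3-fold higher (q = 0.00726). For these limits, the dim side was set on each array to the higher of the probe's own signal and the lowest signal of any probe well above background. Since probe 2 was kept through wild-type alone, it had to differ, and these q values give no support of their own. On probe 3 the PJ34-treated level was 6.56 and 6.65 in wild-type NSPCs and not well above background in *Trp53*-/- NSPCs. It was at least 1.38-fold higher in wild-type by the same rule, which was not called (q = 0.0722).

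*Cdkn1b*, which codes for p27, had 2 probes on chromosome 6 (mm9, 134875424 to 134875483 and 134873606 to 134873665). The first is listed for the RefSeq transcript and the second for an Ensembl transcript. The log2 ratio of probe 1 was -0.15 and -0.20 in wild-type and 0.15 and 0.0021 in *Trp53*-/- NSPCs, and that of probe 2 was -0.14 and -0.20 in wild-type and -0.086 and 0.17 in *Trp53*-/- NSPCs. Both wild-type arrays were below 0 on each probe, and the 2 probes read the same 2 arrays. Neither mean passed the threshold (q = 0.114 and 0.135), and the 95% intervals ran from -0.38 to 0.025 and from -0.39 to 0.042. The untreated levels on probe 1 were 11.32 and 11.10 in wild-type and 10.91 and 10.82 in *Trp53*-/- NSPCs. This difference of -0.35 (95% interval -0.78 to 0.088) did not pass the threshold (q = 0.166), nor did that on probe 2, at -0.030 (q = 0.527).

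*Cdkn1c*, which codes for p57 and is imprinted, had 1 probe (chromosome 7, 150644753 to 150644812, minus strand). Its log2 ratio was 0.25 and 0.18 in wild-type and 0.21 and 0.037 in *Trp53*-/- NSPCs, and the wild-type mean of 0.21 (95% interval 0.0092 to 0.42) had q = 0.0752. Its untreated level was 7.51 and 8.32 in wild-type and 9.10 and 9.58 in *Trp53*-/- NSPCs. Both *Trp53*-/- arrays were thus higher, by 2.69-fold in the mean (log2 1.43, standard error 0.31, q = 0.0379). This call was lost with Benjamini-Hochberg adjustment (adjusted p = 0.0677, limma), without the filter on dim probes, and without either *Trp53*-/- array (log2 1.67 without replicate 1 and 1.19 without replicate 2). With PJ34 the levels were 7.76 and 8.49 in wild-type and 9.31 and 9.62 in *Trp53*-/- NSPCs, a difference of 1.33 with q = 0.0548.

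*Cdkn2a* had the largest genotype difference of untreated level among the INK4 genes. Its 2 probes on chromosome 4 (mm9, 88920405 to 88920464 and 88920543 to 88920602, minus strand) are each listed for both RefSeq transcripts, so that the INK4 and ARF transcripts were not separated. On probe 1 the untreated level was 11.11 and 11.64 in wild-type and 14.72 and 14.94 in *Trp53*-/- NSPCs, and on probe 2 it was 7.25 and 7.38 against 10.49 and 10.99. On both probes, each *Trp53*-/- array was above each wild-type array. The untreated level was higher in *Trp53*-/- NSPCs by 3.46 on the log2 scale on probe 1 (95% interval 7.43- to 16.3-fold, q = 0.00766) and by 3.43 on probe 2 (7.42- to 15.6-fold, q = 0.00766). With PJ34 the differences were 3.45 and 3.16 (q = 0.00726 and 0.00748).

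The PJ34 ratios of *Cdkn2a* were smaller in size than its genotype differences on every array. On probe 1 the log2 ratio was -0.30 and -0.47 in wild-type and -0.41 and -0.39 in *Trp53*-/- NSPCs. These means, -0.39 and -0.40, had q = 0.00895 and 0.00899 but were under 2-fold. On probe 2 the ratios were -0.017 and 0.062 in wild-type and -0.18 and -0.30 in *Trp53*-/- NSPCs (q = 0.460 and 0.0506). The wild-type values of the 2 probes therefore did not share a sign. With median centring the values of probe 1 turned to 0.26 and 0.68, which is -0.16 and 0.11 relative to the median of all probes at 0.42 and 0.57.

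*Cdkn2b*, the neighbour of *Cdkn2a* that codes for p15, also had 2 probes on chromosome 4 (mm9, 88952276 to 88952335 and 88952720 to 88952779, minus strand), both of 1 RefSeq transcript. Its untreated level on probe 1 was 9.86 and 10.08 in wild-type and 12.17 and 12.22 in *Trp53*-/- NSPCs, and on probe 2 it was 7.35 and 7.91 against 9.77 and 9.59. The genotypes were apart on both probes, with *Trp53*-/- higher by 4.68-fold (log2 2.23, standard error 0.18, q = 0.00766) and 4.14-fold (log2 2.05, standard error 0.23, q = 0.0140). With PJ34 the differences were 1.64 and 1.61 (q = 0.0258 and 0.0346), and the call of probe 2 was lost with Benjamini-Hochberg adjustment (adjusted p = 0.0637, limma) and without the filter (q = 0.0621).

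The PJ34 ratios of *Cdkn2b* had opposite signs in the genotypes. On probe 1 the log2 ratio was 0.40 and 0.23 in wild-type and -0.36 and -0.18 in *Trp53*-/- NSPCs, and on probe 2 it was 0.13 and 0.022 against -0.56 and -0.18. On each probe both wild-type arrays lay above 0 and both *Trp53*-/- arrays below it. The 2 probes read the same 2 arrays of each genotype and are not separate replicates. The difference between genotypes was 0.59 on probe 1 (95% interval 0.28 to 0.89, q = 0.0600) and 0.44 on probe 2 (0.11 to 0.78, q = 0.164), neither of which passed the threshold. Probe 1 had q = 0.0492 without the filter, 0.0459 with a stricter one and 0.0407 with a variance trend, each time under 2-fold. Within a genotype, the mean of probe 1 was 0.31 in wild-type (q = 0.0251) and -0.27 in *Trp53*-/- NSPCs (q = 0.0437). That of probe 2 was 0.074 (q = 0.355) and -0.37 (q = 0.0223). With median centring all 4 means were above 0, the differences were 0.28 and 0.075, and the *Trp53*-/- means relative to the median of all probes were 0.075 and -0.17.

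**Figure D3:**
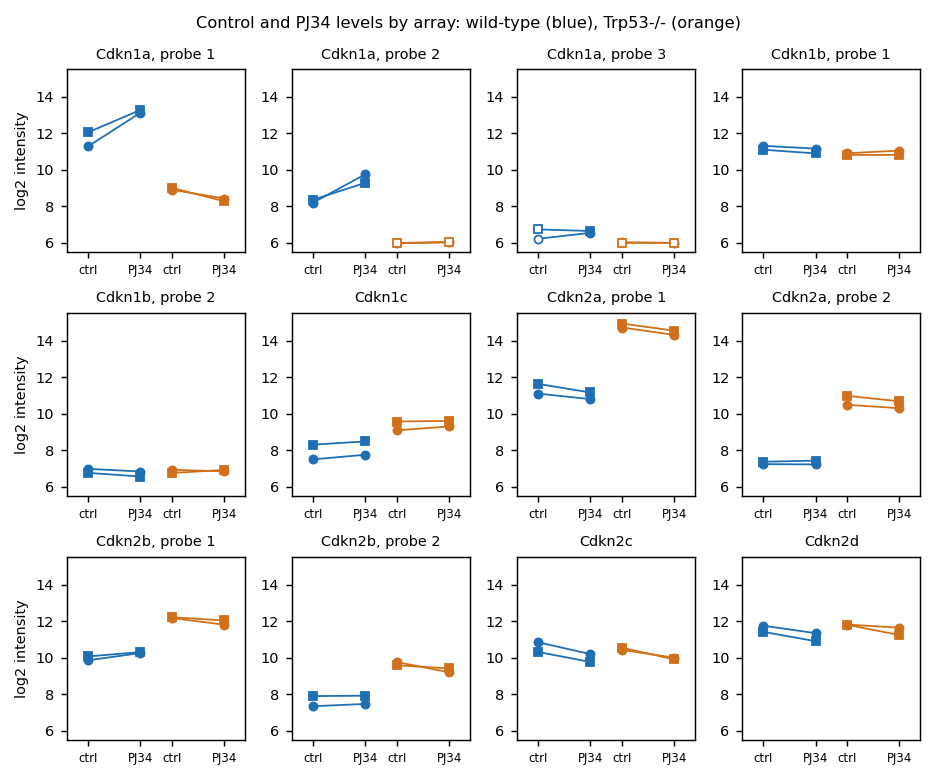
Log2 intensity (y axis, the same in all panels) of each of the 12 probes in the control and the PJ34 channel, with 1 line per array, circles for replicate 1 and squares for replicate 2. Open symbols were not well above background. Levels may be compared within a panel only. The Trp53-/- lines lie above the wild-type lines for Cdkn2a and Cdkn2b, below them for Cdkn1a, and overlap them for Cdkn2c.

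*Cdkn2c*, which codes for p18 (chromosome 4, 109333508 to 109333567, minus strand), had the same direction on all 4 arrays. Its log2 ratio was -0.65 and -0.55 in wild-type and -0.43 and -0.65 in *Trp53*-/- NSPCs, so that the genotypes overlapped. The means were a 1.52-fold (log2 -0.60, standard error 0.096, q = 0.00128) and a 1.45-fold (log2 -0.54, standard error 0.096, q = 0.00296) lower level with PJ34, under the 2-fold limit. With median centring they turned to 0.0037 and 0.28, which is -0.41 and -0.29 relative to the median of all probes. The untreated level was 10.85 and 10.32 in wild-type and 10.43 and 10.56 in *Trp53*-/- NSPCs, and the difference of -0.092 had a 95% interval from -0.65 to 0.46 (q = 0.470).

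*Cdkn2d*, which codes for the INK4 protein p19 (chromosome 9, 21092934 to 21092993, minus strand), gave a similar picture. Its log2 ratio was -0.41 and -0.51 in wild-type and -0.17 and -0.56 in *Trp53*-/- NSPCs. All 4 arrays were lower with PJ34, and the means of -0.46 and -0.37 (q = 0.00842 and 0.0226) were under 2-fold. With median centring they were 0.18 and 0.52, which is -0.24 and -0.047 relative to the median of all probes. For neither gene did the response differ between genotypes by the test, with -0.064 (95% interval -0.36 to 0.24) for *Cdkn2c* and -0.091 (-0.43 to 0.25) for *Cdkn2d*. The untreated level of *Cdkn2d* was 11.76 and 11.42 in wild-type and 11.82 and 11.81 in *Trp53*-/- NSPCs (q = 0.292).

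Without the fold limit, p and q were below 0.05 in wild-type for 3 probes that were higher with PJ34, 2 of *Cdkn1a* and 1 of *Cdkn2b*, and for 3 that were lower, of *Cdkn2a*, *Cdkn2c* and *Cdkn2d*. Over all probes 12.3% were higher and 10.4% lower by this rule. In *Trp53*-/- NSPCs they were below 0.05 for 0 probes that were higher and for 6 that were lower, 1 each of *Cdkn1a*, *Cdkn2a*, *Cdkn2c* and *Cdkn2d* and 2 of *Cdkn2b*, beside 12.0% higher and 9.68% lower over all probes. Median centring put the median of all probes at 0.42 in wild-type and 0.57 in *Trp53*-/- NSPCs. By the same rule, 6 of the 12 probes were then higher and 0 lower in wild-type and 7 higher and 0 lower in *Trp53*-/- NSPCs, and the calls over all probes went from 71 higher and 47 lower to 1384 and 3 in wild-type and from 19 and 67 to 4017 and 4 in *Trp53*-/- NSPCs. Without *Trp53*-/- replicate 2, 1 of the 12 probes was lower at q below 0.05 in that genotype, probe 2 of *Cdkn2b* (-0.56, q = 0.0188). The others that lost it, beside *Cdkn1a* probe 1, were probe 1 of *Cdkn2a* (-0.41, q = 0.0837), probe 1 of *Cdkn2b* (-0.36, q = 0.117), *Cdkn2c* (-0.43, q = 0.0672) and *Cdkn2d* (-0.17, q = 0.399). The median log2 ratio of the 12 probes was 0.049 in wild-type and -0.26 in *Trp53*-/- NSPCs, beside 0.028 and 0.032 over all probes.

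Between untreated cells of the genotypes, 7 of the 11 probes tested were called, for 4 of the 7 genes, where 4.25% of 22409 probes were. *Cdkn1a* was lower in *Trp53*-/- NSPCs on 2 probes, beside 2.16% of all probes, and *Cdkn1c*, *Cdkn2a* and *Cdkn2b* were higher on 5, beside 2.09%. Over all probes 469 were called higher and 484 lower, which became 1246 and 173 without scaling between arrays, where the log2 difference of *Cdkn1a* probe 1 was -2.36 and that of *Cdkn2a* probe 1 was 3.78. Probe 3 of *Cdkn1a* did not pass the filter, and probe 2, counted here, passed it through wild-type alone. Without *Trp53*-/- replicate 2 the untreated differences were -2.75 for *Cdkn1a* probe 1, 3.35 and 3.18 for *Cdkn2a* and 2.20 and 2.14 for *Cdkn2b*, all called. Between PJ34-treated cells, 6 of 12 probes were called, for *Cdkn1a*, *Cdkn2a* and *Cdkn2b*, where 2.33% of 26902 probes were (209 higher and 418 lower, and 976 and 235 without scaling). Probe 2 of *Cdkn1a*, counted among the 6, and probe 3, counted among the 12, passed this filter through wild-type alone. Without either *Trp53*-/- array, 0 of all 26902 probes were called in treated cells by limma, with 2575 (without replicate 1) and 1756 (without replicate 2) at an unadjusted p below 0.05. The values of the inhibitors stayed close to those of all 4 arrays. That of *Cdkn1a* probe 1 was -4.92 without replicate 1 (q = 0.0868) and -4.77 without replicate 2 (q = 0.134), and that of *Cdkn2a* probe 1 was 3.56 (q = 0.0914) and 3.33 (q = 0.139). Levels were compared across arrays that were scanned one by one on separate slides, so that genotype and slide cannot be told apart in the single-channel levels with 2 arrays each.

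Markers of other cell types moved with the genotype as well. The summed level of the 6 oligodendrocyte markers, all above background on every array, was 11.09 to 11.79 (log2) in untreated wild-type and 13.19 to 13.29 in untreated *Trp53*-/- NSPCs, and 3 of 6 were called higher. In *Trp53*-/- NSPCs 2 of the 6 were called lower with PJ34. Of the 4 endothelial markers, only *Kdr* was above background in the control channel and *Pecam1*, *Cdh5* and *Tek* were not on any array, and the sum was 12.99 to 13.06 in wild-type and 11.66 to 11.82 in *Trp53*-/- NSPCs. Of the 5 astrocyte markers, 2 were called higher in untreated *Trp53*-/- NSPCs, where 2.09% of all probes were, and 4 were higher at q below 0.05. *Aldh1l1* went the other way (-0.58) and was not called. The sums were 10.58 to 11.63 in wild-type and 11.59 to 11.60 in *Trp53*-/- NSPCs. *Aldh1l1*, the brightest of the 5 in wild-type, was at 9.73 and 11.22 there and at 9.93 and 9.86 in *Trp53*-/- NSPCs. The sums of the 8 NSPC markers overlapped, at 17.01 to 17.34 and 17.05 to 17.05. A sum is set mainly by its brightest probes, here *Fabp7* (15.89 to 16.57) and *Vim* (15.32 to 15.74), and says little of the dimmer markers. Some single NSPC markers were called, however. *Hes5*, a Notch target, gave a log2 ratio of -2.01 on wild-type replicate 1 and a mean of -1.76 in wild-type, against -0.85 and -0.44 in *Trp53*-/- NSPCs, and both the wild-type response and the difference between genotypes (-1.11, q = 0.0187) were called. *Msi1*, named after its values were seen, was called lower in PJ34-treated *Trp53*-/- NSPCs (-1.37, q = 0.0316). The neuronal *Rbfox3*, also named after its values were seen, was called higher in untreated *Trp53*-/- NSPCs (1.24, q = 0.0186). Other neuron markers went both ways there and were not called, with *Tubb3* at 0.62, *Dcx* at 0.64, *Map2* at -0.45 and *Snap25* at -0.73. The summed level of the 6 neuron markers was 12.89 to 13.28 in untreated wild-type and 12.67 to 12.73 in untreated *Trp53*-/- NSPCs. The part of all these markers in the results of the CDK inhibitors was not tested.

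**Figure D4:**
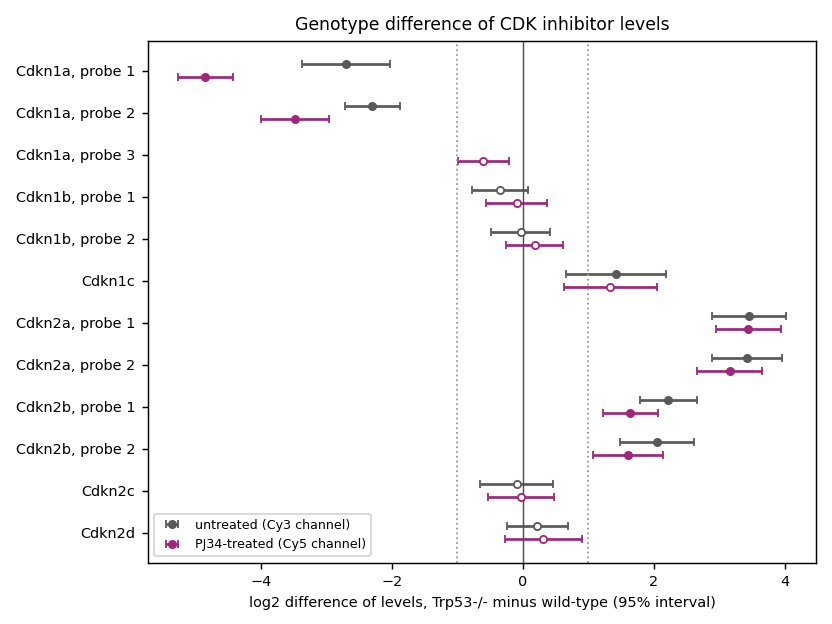
Difference of log2 level between Trp53-/- and wild-type NSPCs (x axis) for each probe (rows), in the untreated (grey) and the PJ34-treated (purple) channel, with 95% intervals from limma. Filled symbols were called and dotted lines mark 2-fold. Cdkn1a lies to the left, at -2.70 and -4.85 on probe 1, and Cdkn2a to the right, at 3.46 and 3.45 on probe 1.

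The genes whose ratios over the 4 arrays lay nearest to those of *Cdkn1a* were sought among all probes kept. For probe 1 they were *Fas* (a death receptor gene), *Mgmt* (a DNA repair gene), *Gdf15*, *Pqlc3* and *Celf5*, at Euclidean distances of 0.51 to 0.71 in log2 units over 4 arrays. For *Fas*, the nearest, the log2 ratio was 1.73 and 1.38 in wild-type and -0.48 and -0.27 in *Trp53*-/- NSPCs. For probe 2 they were *Etnk2*, *Ptprv*, *Grhl3*, *Dapk1* and *Gas6*, at distances of 0.18 to 0.36. Since the *Trp53*-/- ratios of probe 2 came from signals that were not above background, its distances rest in part on readings at background. *Ptprv*, the second nearest to probe 2, gave 1.48 and 0.86 in wild-type and 0.26 and 0.020 in *Trp53*-/- NSPCs.

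Around the inhibitors, the genes of their partners were counted from lists. Of 13 CDKs and cyclins, 11 had a probe that was kept, and none was called in any of the comparisons of PJ34 with control or in their difference. Without the fold limit, 7 of the 11 were lower with PJ34 in wild-type and 3 in *Trp53*-/- NSPCs, none higher, beside 10.4% and 9.68% of all probes that were lower, with medians of -0.28 and -0.17. Of 13 pocket protein and E2F genes, none was called, and 2 were higher and 3 lower in wild-type and 2 and 1 in *Trp53*-/- NSPCs without the fold limit. Of 10 genes for the breakdown of CDK inhibitors, none was called, with 1 higher and 3 lower in wild-type and 2 and 1 in *Trp53*-/- NSPCs. Over all probes 12.3% were higher and 10.4% lower in wild-type and 12.0% and 9.68% in *Trp53*-/- NSPCs. The medians of these lists lay between -0.28 and 0.18, beside 0.028 and 0.032 over all probes.

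Of 19 genes known to control the expression of CDK inhibitors, 17 were tested and 1 was called, *Mdm2*, which codes for the ubiquitin ligase that keeps p53 low and is itself a p53 target. Its log2 ratio was 1.16 and 0.89 in wild-type and 0.0077 and -0.070 in *Trp53*-/- NSPCs. The genotypes did not overlap, and the difference of 1.05 was called (q = 0.00577). Over all probes 0.437% were called in wild-type and 0.422% in the difference. Of the 3 genes that carry a Cdkn symbol but belong to neither family, none was called.

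**Figure D5:**
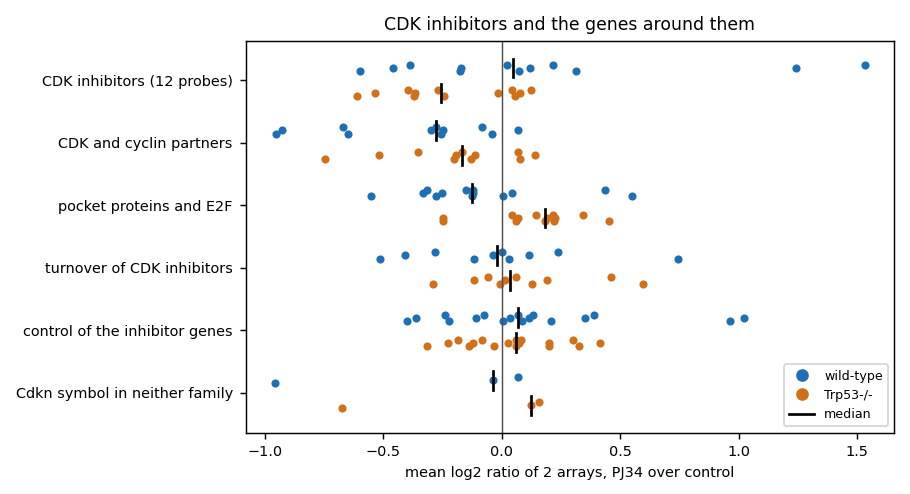
Mean log2 ratio of PJ34 over control of 2 arrays (x axis) for the 12 probes of CDK inhibitors and for the genes of 5 lists around them (rows), in wild-type (blue) and Trp53-/- (orange) NSPCs, with black bars at the medians. The wild-type values furthest to the right, 1.53 and 1.24, are Cdkn1a probes 1 and 2.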

How the data were processed

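The authors labelled RNA with Cy5 or Cy3, hybridized it to Agilent SurePrint G3 Mouse GE arrays and deposited the output of Feature Extraction 10.7.3.1 for each array, on genome build mm9. The deposited intensity values used here are the mean and the local background of each spot. The deposited log10 ratios, turned into log2, served as an alternative. A table with 4 value columns was not used, since their names match no array. Background was corrected by normexp (offset 50), ratios by loess within the array, and single channels also by Aquantile between arrays (limma 3.58.1, R 4.3.3). Control and outlier spots (228 to 276 per array) were left out and spots of a probe averaged. Ratios were kept for probes with a channel flagged as well above background in both replicates of either genotype (27029 probes). For levels, the channel compared had to be (22409 control, 26902 PJ34). The limma model had 1 mean for each genotype, and in the ratio fit the degrees of freedom were 2, or 10.5 once moderated. Calls needed p and Storey's q (smoother over lambda 0.05 to 0.95) below 0.05 and more than 2-fold, as in the methods of the study. An exact permutation test of 2 against 2 arrays cannot go below p = 0.333 and was not used. All member probes are named, together with *Trp53*, list genes called in a ratio comparison and the 5 nearest genes. A listed gene was read from its brightest kept probe. Members and lists were chosen with earlier results of these data known. On simulated ratios for wild-type over 27029 probes, 91 of 100 changes of 1.5 (log2) and 96 of 100 of 2.5 were recovered, with 0 false calls. For the difference between genotypes 77 and 87 of 100 were, with 1 false call. The simulated noise was normal around 0 with each probe's own spread, and independent between probes and arrays. It held no dye bias and no effect shared within an array, so that false calls from these were not tested. Sequences came from RefSeq tables (GRCm38.p6) and the array files. The number of arrays limits the precision.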

Additional observations from a re-analysis of the deposited data

Results flagged for a closer look

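The response of *Cdkn1a* to PJ34 differed between the genotypes by limma's test of the difference, by 2.14 on probe 1 and 1.19 on probe 2 on the log2 scale (wild-type minus *Trp53*-/-). On probe 2 neither channel cleared background in *Trp53*-/- NSPCs, so that its value rests on the wild-type arrays and gives no support of its own. Among sex-linked genes, which are not CDK inhibitors, *Trp53*-/- replicate 2 gave log2 ratios of 4.22 for *Eif2s3y* and 3.12 for *Ddx3y*. The untreated cells of that genotype were at 6.01 to 6.24 and 6.04 to 6.17 (log2 intensity), not well above background, so that the sizes of these ratios are not exact. Their part in the values of this array was not tested.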

How the results depend on the processing

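Each value of the 12 probes was recomputed under each alternative, 959 values in all. Of these, 854 kept their direction and their side of the threshold, 23 were no longer called, 36 became called and 35 changed sign with neither value at q below 0.05. The other 11, which changed sign with q below 0.05 in one of the fits, all came from median centring, which leaves the median of all probes at 0.42 in wild-type and 0.57 in *Trp53*-/- NSPCs. In wild-type they were *Cdkn1b* probe 1 (0.46), *Cdkn2a* probe 1 (0.26), *Cdkn2c* (0.0037) and *Cdkn2d* (0.18). In *Trp53*-/- NSPCs they were *Cdkn1a* probe 1 (0.065), *Cdkn2a* (0.68 and 0.60), *Cdkn2b* (0.65 and 0.40), *Cdkn2c* (0.28) and *Cdkn2d* (0.52).

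*Cdkn1a* was called in the wild-type response under every alternative that was run. In the difference between genotypes, 0 genes of the family were called with ratios from the scanner software, and probe 2 was not called with an offset of 16 (1.23). Without the fold limit, 6 genes in wild-type, 5 in *Trp53*-/- and 2 in the difference had an unadjusted p below 0.05 in limma. Over all probes 30.3%, 30.0% and 14.0% had. By q below 0.05 there were 5 genes in wild-type and 5 in *Trp53*-/-, beside 22.8% and 21.7% of all probes. A gene counts here if any of its probes passed. Leaving out each array in turn, where the lone array left was assumed to vary like the other genotype, gave 1 gene in wild-type, 0 in *Trp53*-/-, 1 in the difference, 3 to 4 in untreated levels and 0 to 4 in PJ34-treated levels. *Cdkn1c* became called in PJ34-treated levels under several alternatives, among them no scaling between arrays (1.64), which moved the median of all probes to 0.23 there and to 0.28 in untreated levels.

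Over all probes, calls in wild-type went from 118 to 199 with an offset of 16, 665 with the scanner's ratios and 180 without wild-type replicate 2. In *Trp53*-/- NSPCs they went from 86 to 156 and 476, and to 209 without *Trp53*-/- replicate 1. In the difference they went from 114 to 36 and 0, to 43 with median centring and to 227 without *Trp53*-/- replicate 1. In untreated levels they lay between 85 and 2040 with the fold limit kept, against 953. They were 632 under Benjamini-Hochberg adjustment, 174 and 85 without *Trp53*-/- replicate 1 or 2, and 1807 without wild-type replicate 2. In PJ34-treated levels they lay between 0 and 2105, against 627. They were 92 under Benjamini-Hochberg adjustment, 0 without either *Trp53*-/- array, and 1458 and 1719 without wild-type replicate 1 or 2.

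The replicate numbers are shared by the genotypes but nothing says that they pair the arrays, and the deviations of same-numbered arrays correlated at -0.17 for ratios, 0.074 for untreated and 0.24 for PJ34-treated levels. With the replicate number as a block, the genes called stayed at 1 in wild-type, 0 in *Trp53*-/-, 1 in the difference and 4 in untreated levels, and went from 3 to 4 in PJ34-treated levels. With crossed numbers, chosen after seeing the data, they were 1, 0 and 1 in the ratio comparisons. With crossed numbers *Cdkn2b* probe 1 had q = 0.0183 in the difference. Values near background, those of *Cdkn1a* probe 3 and of probe 2 in *Trp53*-/- NSPCs, are limits only.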
